A study of Triticum aestivum with 12 samples.

Results

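FUL2 and FUL3 are MADS-box transcription factor genes of bread wheat. Each is present in 3 homoeologues, the corresponding copies on the A, B and D sub-genomes, so that they comprise 6 genes, taken by their identifiers from a table of 107891 genes. FUL2-A (TraesCS2A02G174300), FUL2-B (TraesCS2B02G200800) and FUL2-D (TraesCS2D02G181400) lie on chromosomes 2A, 2B and 2D, and so do FUL3-A (TraesCS2A02G261200), FUL3-B (TraesCS2B02G281000) and FUL3-D (TraesCS2D02G262700). The names FUL2 and FUL3 were given with the identifiers, and the chromosome is read from the identifier.

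MADS-box proteins bind DNA through a conserved domain and act in dimers and larger complexes. FUL2 and FUL3 belong to the APETALA1/FRUITFULL clade together with VRN1, the gene whose activation by long cold marks vernalization in cereals. Mutant studies of wheat have shown that VRN1, FUL2 and FUL3 act in part redundantly when the vegetative shoot apical meristem turns into an inflorescence meristem and when lateral meristems become spikelets rather than leafy shoots. An axillary bud, by contrast, is the lateral meristem from which a tiller grows.

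RNA was sequenced from 3 tissues of the winter wheat cultivar AK58, namely leaf, axillary bud and shoot apex, each without and with vernalization, which gave 6 groups of 2 libraries. All plants grew for 2 weeks with 16 h of light at 22 °C and 8 h of darkness at 19 °C, and the vernalized groups then spent 1 month at 4 °C under the same light regime and 1 day back in the greenhouse. The vernalized plants were therefore also older, and cold and age cannot be told apart. Leaves were cut directly, whereas buds and apices were dissected under a microscope, and the same cultivar was used throughout.

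Expression is given as TPM (transcript abundance as parts of a fixed total), which is scaled for gene length and for the size of the library, so that levels can be compared between genes. TPM keep no trace of the number of reads, so the depth behind a value is unknown and a gene without signal is described as listed at 0. The number of genes above 1 TPM ranged from 34465 to 50836 over the libraries. The labelled tissues could not be checked against marker genes, because 0 identifiers matched the annotation at hand. In dissected tissue, a lower level can mean fewer cells of a type or less RNA per cell, and the 2 cannot be told apart.

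FUL2 and FUL3 were nearly silent before vernalization in all 3 tissues and rose strongly in the vernalized shoot apex. FUL2 also appeared in the vernalized axillary bud at 21.1% of its level in the apex, whereas FUL3 reached 1.93% there. In leaf, with or without cold, no copy exceeded 0.0170 TPM. Within FUL2 the A copy was the strongest in both tissues, whereas the FUL3 copies were closer to each other.

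Before vernalization, the transcripts of FUL2 and FUL3 were close to the bottom of the range. In leaf, FUL3-D was listed at 0.0170 TPM in replicate 2 and at 0 in replicate 1, and the other 5 genes were listed at 0 in both libraries. In axillary bud, all 6 genes were listed at 0 in both libraries. In shoot apex, FUL2-A was at 0.0513 TPM in replicate 1 and 0.0163 TPM in replicate 2. FUL2-B was lower in the same libraries, at 0.0137 and 0.00723 TPM, and FUL2-D and all FUL3 copies were listed at 0. The non-vernalized apex was thus the tissue in which traces of FUL2-A and FUL2-B occurred in both libraries.

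Vernalized leaf held smaller traces. FUL2-B was at 0.00316 TPM in replicate 1 and FUL2-D at 0.00536 TPM in replicate 2, and the remaining values were listed at 0. Over the 8 libraries outside vernalized bud and vernalized apex, 41 of 48 values of these genes were listed at 0 and the highest was 0.0513 TPM. Zeros were common, with 34655 to 42674 genes of the table listed at 0 in a library, although 0 genes above 10 TPM in at least 11 libraries were listed at 0 in the remaining one.

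The vernalized shoot apex showed the highest level of every copy. FUL2-A, the strongest FUL2 copy, reached 6.31 TPM in replicate 1 and 5.14 TPM in replicate 2 (mean 5.73 ± 0.828, SD, n = 2). FUL2-B reached 2.78 and 2.58 TPM (mean 2.68 ± 0.139, SD, n = 2). FUL2-D reached 2.88 and 2.42 TPM (mean 2.65 ± 0.324, SD, n = 2). Both libraries of FUL2-A were above both libraries of FUL2-B and FUL2-D, whose ranges overlapped.

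The FUL3 copies were in the same range as FUL2-A in the vernalized apex. FUL3-D stood at 6.86 TPM in replicate 1 and 4.48 TPM in replicate 2 (mean 5.67 ± 1.69, SD, n = 2). FUL3-A stood at 5.36 and 3.91 TPM (mean 4.64 ± 1.02, SD, n = 2). FUL3-B stood at 4.70 and 3.62 TPM (mean 4.16 ± 0.760, SD, n = 2). The ranges of the 3 FUL3 copies overlapped, so their order in the apex was not set by these libraries. In these libraries each of the 6 genes was above between 69.9% and 83.4% of all genes in the table, a moderate level.

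Every copy was higher in replicate 1 than in replicate 2 of the vernalized apex, by between 1.08 and 1.53 times. The same held for the library as a whole, with a median ratio of 1.36 over the 40797 genes above 1 TPM in both libraries. Median-of-ratios scaling divides each library by its median ratio to the geometric mean of each gene, over genes above 1 TPM in every library. After this scaling, 5 of the 6 copies (all except FUL3-D) were instead higher in replicate 2, with FUL2-A at 6.02 and 7.12 scaled TPM in replicates 1 and 2. The direction of the difference between these libraries thus depended on the scaling.

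**Figure D1:**
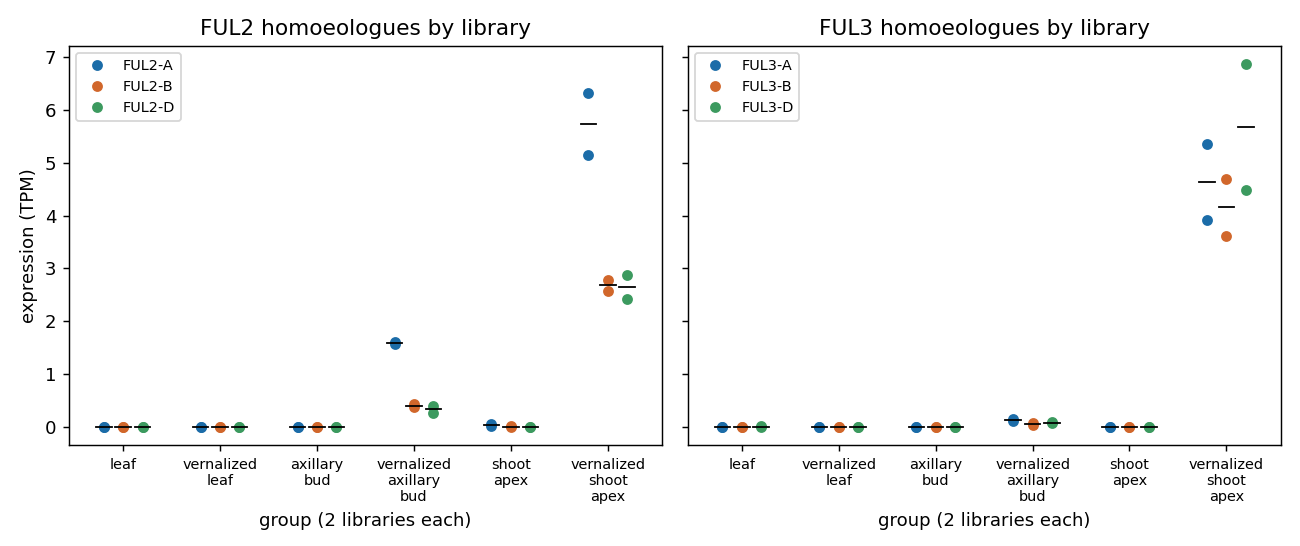
Expression (TPM, linear axis) of the 3 FUL2 homoeologues (left) and the 3 FUL3 homoeologues (right) in the 6 groups, where each point is a library and each black line the mean of 2 libraries. Points outside the vernalized axillary bud and the vernalized shoot apex lie at or below 0.0513 TPM, and both apex points of every copy lie above its bud points.

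The vernalized axillary bud was the group in which FUL2 and FUL3 parted. FUL2-A was at 1.60 and 1.58 TPM in the libraries of replicates 1 and 2. FUL2-B was at 0.431 and 0.380 TPM, and FUL2-D at 0.275 and 0.404 TPM. FUL2-A was the single copy above 1 TPM in a bud library, and its bud libraries were both above those of every other copy.

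FUL3 stayed near the floor in the vernalized bud. FUL3-A was at 0.151 TPM in replicate 1 and 0.109 TPM in replicate 2. FUL3-B was at 0.0384 and 0.0870 TPM, and FUL3-D at 0.0746 and 0.0997 TPM. Both values of every FUL2 copy were above those of every FUL3 copy, and all 6 copies had a value above 0 in both vernalized bud libraries, compared with none in the non-vernalized bud.

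Summed over the homoeologues, FUL2 was at 2.31 and 2.37 TPM in the vernalized bud and at 11.96 and 10.14 TPM in the vernalized apex. Summed FUL3 was at 0.264 and 0.296 TPM in the bud and at 16.92 and 12.01 TPM in the apex. FUL2 was thus the higher of the pair in the bud and FUL3 in the apex. FUL2 exceeded FUL3 by 8.74 and 8.00 times in the bud libraries, and the same ratio was 0.707 and 0.844 in the apex libraries. As a ratio within a library, it does not depend on how the libraries were scaled.

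The level in the vernalized bud as a share of that in the vernalized apex was 27.8% for FUL2-A, 15.1% for FUL2-B and 12.8% for FUL2-D. It was 2.80% for FUL3-A, 1.51% for FUL3-B and 1.54% for FUL3-D. Over all pairings of a bud library with an apex library, the lowest FUL2 share was 9.57% (FUL2-D) and the highest FUL3 share 3.86% (FUL3-A), so that the ranges of the 2 genes did not overlap. This difference between the genes was not tested.

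**Figure D2:**
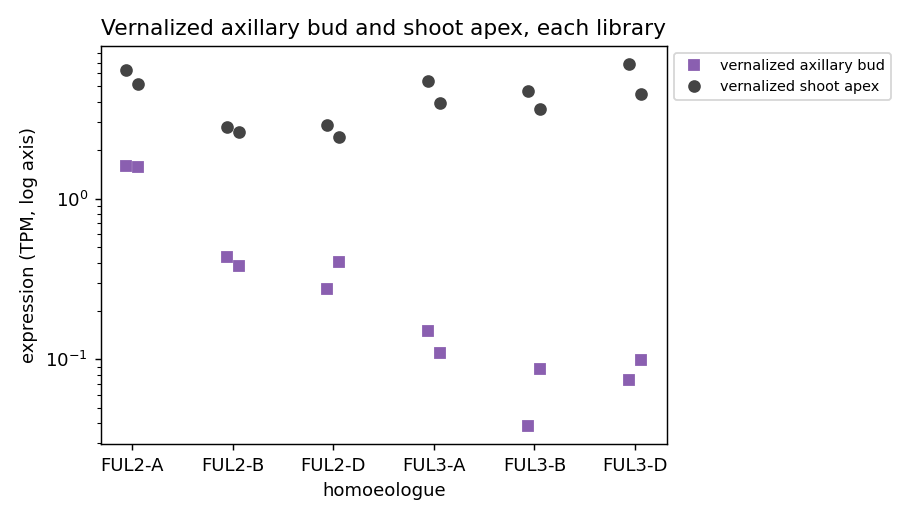
Expression (TPM, log axis) of each homoeologue in the 2 vernalized axillary bud libraries (squares) and the 2 vernalized shoot apex libraries (circles), with replicate 1 to the left of replicate 2. The gap between squares and circles is narrowest for FUL2-A, whose bud mean is 27.8% of its apex mean, and is wide for the FUL3 copies, at 1.51% to 2.80%.

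To ask in which tissue these genes responded to vernalization, the libraries of all 6 groups were fitted with limma on log2(TPM + 1) over the 60326 genes whose mean exceeded 1 TPM in any group. Calls required an unadjusted p-value (two-sided) under 0.01 together with more than a 2-fold change, and p-values adjusted by Benjamini-Hochberg are given as well. All changes in this model are on the log2(TPM + 1) scale, which understates the change of low genes. All 6 genes passed the filter on low values, but 5 of them did so through the vernalized shoot apex alone and FUL2-A also through the vernalized bud. A gene that passes through its highest group has to differ from the others, so the counts of called copies are descriptions.

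In the shoot apex, 1.12% of all genes tested were called higher after vernalization, and 6 of 6 copies were. The response was 2.70 for FUL2-A (SE 0.14, limma adjusted p = 7.03e-07). For FUL2-B it was 1.86 (SE 0.11, limma adjusted p = 2.32e-06) and for FUL2-D 1.86 (SE 0.12, limma adjusted p = 3.73e-06). Among the FUL3 copies it was 2.48 for FUL3-A (SE 0.14, limma adjusted p = 1.13e-06), 2.36 for FUL3-B (SE 0.13, limma adjusted p = 1.03e-06) and 2.71 for FUL3-D (SE 0.16, limma adjusted p = 1.75e-06). Both vernalized libraries were above both non-vernalized libraries for every copy, and the share of all genes separated in this way was not counted. The median response was 2.42 over the 6 copies and -0.06 over all genes tested.

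These adjusted p-values lean on the spread of all 6 groups, and groups listed at 0 have no spread. With the 4 shoot apex libraries fitted alone, the 6 copies were called at the same thresholds, but their adjusted p-values lay between 0.113 and 0.117.

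In the axillary bud, 11.4% of all genes tested were called higher and 3.4% lower (6.23% and 5.31% after median-of-ratios scaling), and 1 of the 6 copies was called higher. FUL2-A rose by 1.37 (SE 0.14, limma adjusted p = 2.33e-05). FUL2-B had a difference of 0.49 (limma adjusted p = 0.00638) and FUL2-D one of 0.42 (limma adjusted p = 0.0205), which were under the 2-fold threshold. The FUL3 copies differed by 0.18 for FUL3-A, 0.09 for FUL3-B and 0.12 for FUL3-D, with limma adjusted p-values between 0.365 and 0.652. The median over the 6 copies was 0.30, beside 0.29 over all genes tested. It was 0.23 beside 0.05 after median-of-ratios scaling, and 1.66 beside 0.43 with a pseudocount of 0.1. The count for the bud depended on the pseudocount, the constant added before the logarithm. At 0.1 in place of 1, FUL2-B (2.34), FUL2-D (2.12) and FUL3-A (1.19) were called as well, with limma adjusted p-values of 0.000153, 0.000404 and 0.0129. Of all 60326 genes tested, 10300 were called higher at 0.1, compared with 6888 at 1.

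In leaf, 12.3% of all genes tested were called higher and 46.2% lower (23.1% and 17.0% after median-of-ratios scaling), and 0 of the 6 copies were called by limma in either direction or had an unadjusted p under 0.05. The fitted differences lay between -0.01 for FUL3-D and 0.00 for the others, and their 95% intervals reached at most from -0.35 to 0.33. The median response of all genes in leaf was -0.90 on the deposited TPM and -0.02 after median-of-ratios scaling, while the median of the 6 copies was 0 under both. No copy exceeded 0.0170 TPM in a leaf library, so no call was possible at these levels and a fall could not be seen. A rise to above 1 TPM was not hidden by the floor, and no copy exceeded 0.00536 TPM in vernalized leaf. The intervals rest mostly on the spread of other groups.

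**Figure D3:**
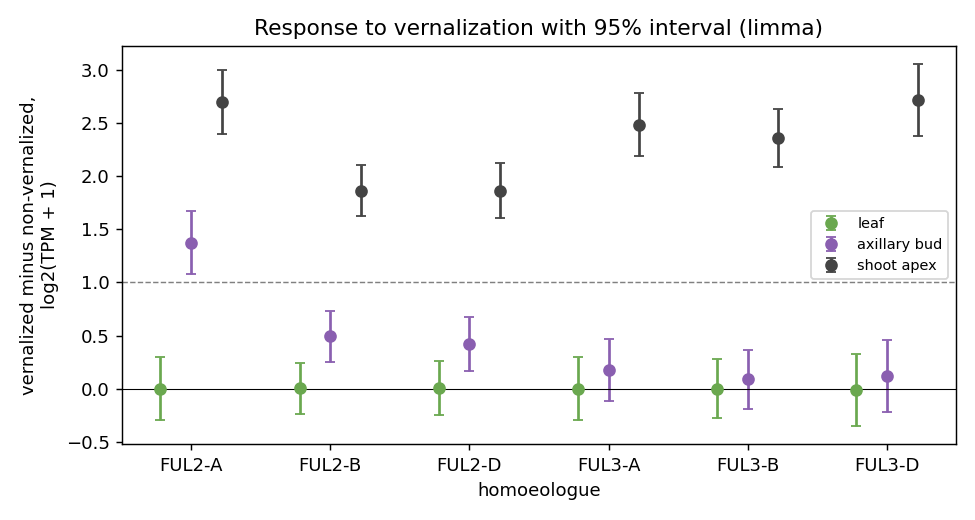
Response to vernalization of each homoeologue, as the vernalized minus the non-vernalized group mean on the log2(TPM + 1) scale from limma, in leaf (green), axillary bud (purple) and shoot apex (grey), with 2 libraries per group. Bars are 95% intervals and the dashed line marks a 2-fold change. All 6 apex points lie between 1.86 and 2.71, the FUL2-A bud point lies at 1.37, and the other bud and leaf points lie below 0.5.

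To compare the response between tissues, an interaction term was fitted, with calls at adjusted p under 0.05 where the responses differed by more than 1. The response in shoot apex exceeded that in axillary bud for 6 of 6 copies, compared with 3.2% of all genes tested (5.22% after scaling). The difference was 1.32 for FUL2-A (limma adjusted p = 0.000479), 1.37 for FUL2-B (limma adjusted p = 8.08e-05) and 1.44 for FUL2-D (limma adjusted p = 8.80e-05). For FUL3 the difference was 2.31 for FUL3-A (limma adjusted p = 7.93e-06), 2.27 for FUL3-B (limma adjusted p = 5.44e-06) and 2.59 for FUL3-D (limma adjusted p = 9.47e-06). The FUL3 values were all above the FUL2 values, a contrast between the genes that was not tested. With a pseudocount of 0.1 the difference for FUL2-A was 1.37 at an adjusted p of 0.0509 and was no longer called.

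The response in shoot apex also exceeded that in leaf for 6 of 6 copies, by 1.86 to 2.73, but so did that of 43.6% of all genes tested (18.1% after scaling). Axillary bud exceeded leaf for 1 of 6 copies, FUL2-A (1.37, limma adjusted p = 8.66e-05), compared with 57% of all genes (18.4% after scaling).

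Levels were further compared between tissues within each treatment. Before vernalization, 0 of the 6 copies were called in either direction between any pair of tissues, and 0 had an unadjusted limma p under 0.05. Of all genes, 41.7% were called between bud and leaf, 48.8% between apex and leaf and 16.7% between apex and bud. No copy exceeded 0.0513 TPM before vernalization, so no call was possible for them on this scale and their count says nothing about differences between tissues. After vernalization, shoot apex was above axillary bud for 6 of 6 copies, compared with 2.59% of all genes (5.45% after scaling), by between 1.37 (FUL2-A) and 2.59 (FUL3-D). Shoot apex was above leaf for 6 of 6 copies, compared with 35.3% of all genes (29.9% after scaling), and axillary bud was above leaf for 1 of 6, FUL2-A, compared with 49.7% of all genes (28.9% after scaling). With a pseudocount of 0.1 this count was 4 of 6, and the share of all genes is not given for that setting. The order after vernalization was thus shoot apex, axillary bud and leaf for FUL2-A, with each step beyond the threshold. For the other copies the step from bud to leaf was not called on the log2(TPM + 1) scale, which understates the change of low genes. FUL2-B (0.49, limma adjusted p = 0.00139) and FUL2-D (0.42, limma adjusted p = 0.00592) differed in that direction. FUL2-B was at 0.431 and 0.380 TPM in vernalized bud and no higher than 0.00316 TPM in vernalized leaf. FUL2-D was at 0.275 and 0.404 TPM in vernalized bud and no higher than 0.00536 TPM in vernalized leaf.

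The homoeologues of FUL2 contributed unequally. FUL2-A held 52.8% and 50.7% of the summed FUL2 transcripts in the vernalized apex libraries and 69.4% and 66.8% in the vernalized bud libraries. FUL2-B held 23.2% and 25.5% in the apex and 18.7% and 16.1% in the bud. FUL2-D held 24.0% and 23.9% in the apex and 11.9% and 17.1% in the bud. The share of FUL2-A was higher in both bud libraries than in both apex libraries, and the shares of FUL2-B and FUL2-D were lower. This shift between tissues was not tested.

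FUL3 was more even in the vernalized apex, where FUL3-D held 40.6% and 37.3%, FUL3-A 31.7% and 32.6%, and FUL3-B 27.8% and 30.2%. In the vernalized bud, FUL3-A held 57.2% of FUL3 in replicate 1 and 36.8% in replicate 2. FUL3-B moved from 14.6% to 29.5% between the same libraries. These shares rest on values of 0.151 TPM or less. FUL3-A was the highest and FUL3-B the lowest copy in both bud libraries, but the values of FUL3-B and FUL3-D overlapped.

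**Figure D4:**
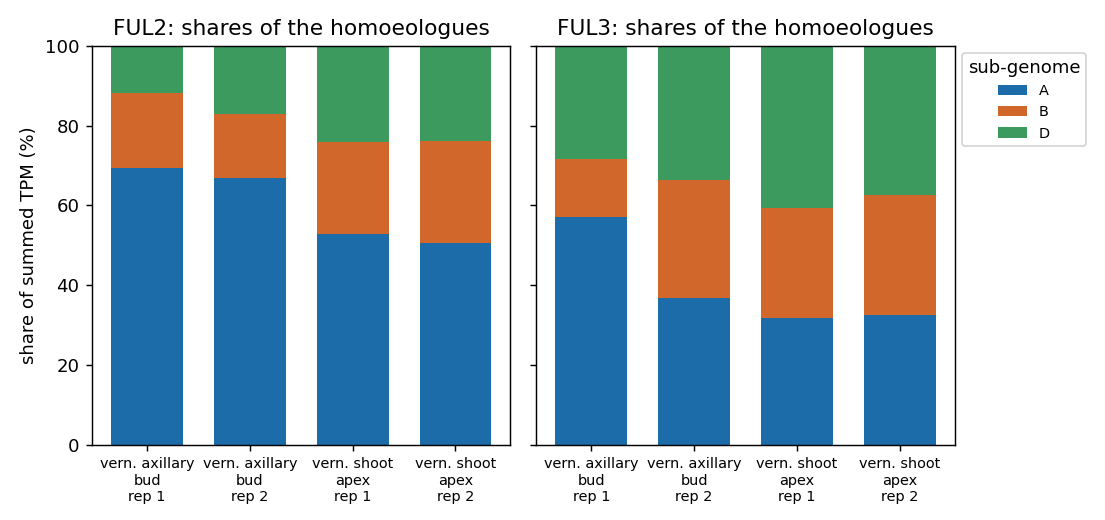
Share (%) of the A, B and D homoeologues in the summed TPM of FUL2 (left) and FUL3 (right) in each vernalized axillary bud and shoot apex library. FUL2-A takes 50.7% to 52.8% in the apex and 66.8% to 69.4% in the bud, whereas the FUL3 bars differ between the 2 bud libraries.

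A difference in response between homoeologues was tested with limma on the difference of log2(TPM + 1) between copies within each library, adjusted over the 5073 comparisons from 1691 sets of 3 homoeologues in a tissue. All copies of FUL2 and FUL3 were at or near 0 before vernalization. On this scale the difference in response therefore mainly restates the difference in level after vernalization, and a difference in fold change was not tested. In the shoot apex, the fitted change of FUL2-A exceeded that of FUL2-B by 0.83 (limma adjusted p = 0.00351) and that of FUL2-D by 0.83 (limma adjusted p = 0.00351), while 2.25% of all comparisons passed. In the axillary bud the differences were 0.88 for FUL2-A against FUL2-B (limma adjusted p = 0.000634) and 0.95 against FUL2-D (limma adjusted p = 0.000475), while 9.58% of all comparisons passed. FUL2-B and FUL2-D did not differ beyond the error in either tissue, with 95% intervals from -0.21 to 0.21 in the apex and from -0.14 to 0.28 in the bud. The error in these comparisons leans on the spread of all 6 groups, and groups listed at 0 have no spread. The intervals may therefore be too narrow and the adjusted p-values too low, also for the FUL3 copies below. A fit of each tissue alone was not run for homoeologue pairs. With a pseudocount of 0.1, the comparison of FUL2-A with FUL2-D in the apex gave 0.67 with an adjusted p of 0.170, and that with FUL2-B an adjusted p of 0.0458.

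The FUL3 copies gave 0 differences with an adjusted p under 0.05 in any tissue by limma. In the apex, the fitted response of FUL3-B minus that of FUL3-D was -0.36 (95% interval from -0.57 to -0.14, limma adjusted p = 0.113), and that of FUL3-A minus FUL3-D was -0.23 (95% interval from -0.43 to -0.03, limma adjusted p = 0.300). Both had an unadjusted p under 0.05, at 0.00431 and 0.0261. Homoeologues are similar in sequence, and the treatment of reads that match several copies is not given in the sources used here, so the division of reads among copies carries an uncertainty that the replicates do not show.

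The genes most alike to FUL2 and FUL3 over the 12 libraries were sought by Pearson correlation of log2(TPM + 1) with the summed homoeologues, as a description. The points share libraries, and 8 of the 12 are at or near 0 for both genes, so the values reflect mostly the vernalized bud and apex. The gene most alike to FUL2 was TraesCS5D02G401500 (r = 0.997), followed by TraesCS5B02G396600 (r = 0.995). TraesCS5D02G401500 was at 2.38 and 2.74 TPM in the vernalized bud and at 10.6 and 10.8 TPM in the vernalized apex, next to summed FUL2 at 2.31 and 2.37 and at 11.96 and 10.14 TPM. It differed from FUL2 in vernalized leaf, where it was at 0.196 and 0.0463 TPM.

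The gene most alike to FUL3 was TraesCS3D02G144500 (r = 0.9996), followed by TraesCS4D02G334800 (r = 0.9987). TraesCS3D02G144500 was at 0.231 and 0.254 TPM in the vernalized bud and at 6.69 and 4.92 TPM in the vernalized apex. The first gene in each list was the same with a pseudocount of 0.1 and after median-of-ratios scaling, whereas the second was not in every case. The files do not name these genes.

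**Figure D5:**
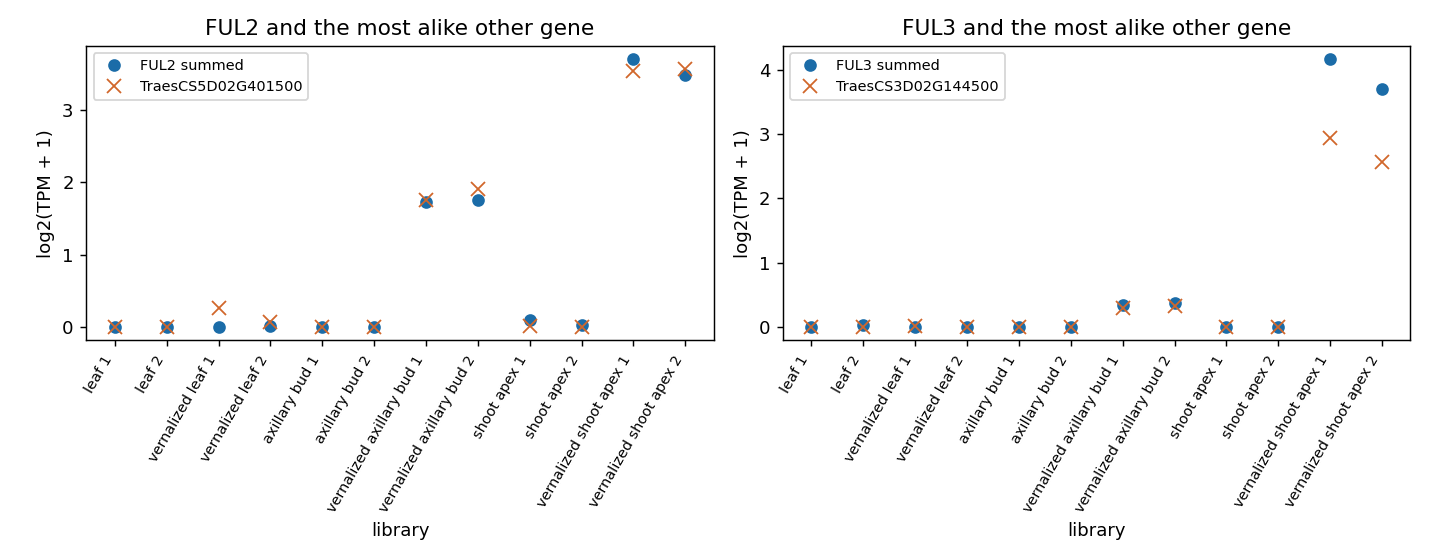
Level on the log2(TPM + 1) scale in each of the 12 libraries for summed FUL2 with TraesCS5D02G401500 (left) and for summed FUL3 with TraesCS3D02G144500 (right). The left pair has an intermediate level in the vernalized bud, whereas the right pair stays close to 0 there and rises in the vernalized apex.

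Among the copies themselves, FUL2-B and FUL2-D were the most alike of all 60325 other genes to each other (r = 0.9972). FUL2-A was less alike to its own homoeologues, with FUL2-B at rank 11 (r = 0.9721) and FUL2-D at rank 18 (r = 0.9627). These ranks depended on the processing. With a pseudocount of 0.1 they were 2 (r = 0.9821) and 7 (r = 0.9718), and after median-of-ratios scaling 13 (r = 0.979) and 15 (r = 0.9743). On the deposited TPM with a pseudocount of 1, the 3 FUL3 copies were within the first 4 ranks of each other, with r of 0.999 or more. FUL2-A and the FUL3 copies were the least alike there, at ranks 81 to 112 of the list of FUL2-A. The summed genes had an r of 0.9235 with each other. Among the FUL3 copies, the lowest r with a pseudocount of 0.1 was 0.9934 (FUL3-A with FUL3-B). After median-of-ratios scaling FUL3-D was at rank 6 of the list of FUL3-B (r = 0.9991).

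SPL genes encode transcription factors of the aging pathway, which act upstream of FRUITFULL in Arabidopsis. Of 53 SPL genes listed by the study 46 were tested, and in the shoot apex 11 were called higher and 0 lower, compared with 1.12% and 2.44% of all genes. In the axillary bud 1 was called higher and 0 lower, compared with 11.4% and 3.4% of all genes. In leaf 0 were called higher and 14 lower, compared with 12.3% and 46.2% of all genes. After median-of-ratios scaling these counts were 11 and 0 in the apex, 0 and 0 in the bud, and 1 and 2 in leaf, of 45 tested. The limma counts in the bud were 9 and 0 with a pseudocount of 0.1, where 10300 and 2504 of the 60326 genes tested were called. TaSPL2 had the pattern nearest to FUL2 and FUL3, with TaSPL2B (TraesCS2B02G250900) the most alike SPL gene to FUL2 (r = 0.9503, rank 32) and TaSPL2D (TraesCS2D02G232800) to FUL3 (r = 0.9914, rank 24). For FUL2 the most alike SPL gene was instead TaSPL2D with a pseudocount of 0.1 (r = 0.9197) and after median-of-ratios scaling (r = 0.9631, rank 23).

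TaSPL2D was at 0.0878 and 0.0608 TPM in the non-vernalized apex and at 15.2 and 16.4 TPM in the vernalized apex, a response of 3.97 (SE 0.16, limma adjusted p = 1.00e-07). In the vernalized bud it was at 0.814 and 0.683 TPM, between summed FUL3 and summed FUL2. In the non-vernalized bud TaSPL2D was at 0.1703 and 0.1085 TPM, below both vernalized bud libraries. The fitted difference in the bud was 0.62 in log2(TPM + 1) (limma adjusted p = 0.0124), under the 2-fold threshold. With values this low, the added constant of 1 shrinks the fitted difference. A rise of more than 2-fold in TPM can therefore stay under the threshold. TaSPL2B had 1.14 and 2.29 TPM already in the non-vernalized bud, in which all FUL2 and FUL3 copies were listed at 0.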

How the data were processed

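The 12 RNA-seq libraries of winter wheat AK58 represent 3 tissues with and without vernalization, 2 libraries per group. Reads were trimmed by the authors with fastp 0.21.0, aligned to IWGSC RefSeq v1.0 with hisat2 under default parameters (version not given in the sources used here), sorted with SAMtools 1.3.1 and summarised as TPM with TPMCalculator. The deposited TPM values of each library were used as they stood. They list 107891 genes, no 2 libraries were identical (0 pairs), and the depth behind them is unknown, so no counting interval was given. The study speaks of biological replicates, and the labels do not say whether they were separate plants. The p-values measure the spread between these libraries.

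The 6 group means of log2(TPM + 1) were estimated in 1 model of the 12 libraries with limma 3.58.1 in R 4.3.3, with variances moderated along a trend on mean expression. A gene was tested where any group mean exceeded 1 TPM. Calls used the thresholds of the study (p-value under 0.01, fold change above 2), two-sided, with Benjamini-Hochberg adjustment over all genes. Interactions were called where adjusted p was under 0.05 and responses differed by more than 1 (log2). For the comparison of homoeologues, 1998 sets of 3 were read from the part of the study's list of triads at hand, in which FUL2 and FUL3 were not found, and these were added. The 1691 sets in which any homoeologue had a group mean above 1 TPM were tested. The scripts were tested on simulated data. With 2 libraries per group an exact permutation test cannot reach these thresholds.

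The genes named were FUL2 and FUL3, the 2 genes most alike to each, and the most alike SPL genes. The values of TaSPL2B in the non-vernalized bud were singled out after they were seen. The members, lists and tests were chosen with earlier results of these data known. Alternatives were a pseudocount of 0.1, no filter, a mean above 5 TPM, median-of-ratios scaling (factors from 21695 genes above 1 TPM in every library, 0.530 to 1.75), each tissue alone, a replicate block, no trend, the adjusted p-value, and leaving out each library. No positions or sequences of these genes were used here. Python 3.11.15 with numpy 2.4.6, pandas 2.3.3 and matplotlib 3.10.9 was used for the other steps.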

Additional observations from a re-analysis of the deposited data

Results flagged for a closer look

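The response of FUL2 and FUL3 to vernalization differed between tissues in 13 tests of the difference itself (limma on log2(TPM + 1), adjusted p under 0.05, responses more than 1 apart). Shoot apex exceeded axillary bud by 1.32 for FUL2-A, 1.37 for FUL2-B, 1.44 for FUL2-D, 2.31 for FUL3-A, 2.27 for FUL3-B and 2.59 for FUL3-D. Shoot apex exceeded leaf by 2.70 for FUL2-A, 1.86 for FUL2-B, 1.86 for FUL2-D, 2.48 for FUL3-A, 2.36 for FUL3-B and 2.73 for FUL3-D. Axillary bud exceeded leaf by 1.37 for FUL2-A. These values are also in the account of the tissues above, where the share of all genes that pass each test is given. All except the last of these tests involve the vernalized shoot apex, the single group through which 5 of the 6 copies passed the filter on low values. The last involves the vernalized bud, through which FUL2-A passed as well as through the apex. The counts are therefore descriptions. Leaf was at or near 0 throughout, so the differences from leaf nearly repeat the responses of apex and bud and add little to them. Groups of 2 libraries were too small for a check of single libraries that stand apart.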

How the results depend on the processing

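No result reversed. With a pseudocount of 0.1, 4 copies were called in the axillary bud response, compared with 1. Of the 60326 genes tested, 10300 were called higher in it, compared with 6888. For the difference of that response from leaf, and for vernalized bud against leaf, 4 copies were called, compared with 1 in each. The share of all genes at this setting is not given for either. At 0.1, 1 FUL2 pair of homoeologues differed in the shoot apex instead of 2. A mean above 5 TPM left FUL2-A and FUL3-D, so that 2 copies were tested and 2 called in the shoot apex response, its differences from bud and leaf, and vernalized apex against bud and leaf. With each library left out in turn, 6 copies were called in the shoot apex and 1 in the axillary bud, and the response of FUL2-A lay between 2.57 and 2.82 in the apex. With a replicate block the counts were 6 and 1, and it changed no other call of these genes. The labels do not say that replicate numbers pair libraries. Deviations of same-numbered libraries correlated at 0.742 between the 2 shoot apex groups, 0.005 in bud and -0.075 in leaf. A replicate block within each tissue, added after seeing the data, gave 6 and 1. With pseudocount 0.1, 25 genes had r above 0.95 to FUL3, compared with 63, and 30 SPL genes were called lower in leaf, compared with 14. Unknown depth limits the values under 0.1 TPM.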

Other observations

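A count chosen after the values were seen asked how many genes share the off-to-on pattern of FUL2 and FUL3. Its limits were set with the values of these copies known, so that all 6 meet them was fixed in advance. Of 107891 genes, 21 (0.0195%) were under 0.1 TPM in each of the 8 libraries outside vernalized bud and vernalized apex and above 1 TPM in both vernalized apex libraries, and all 6 copies of FUL2 and FUL3 were among them. By mean TPM in the vernalized apex, FUL2-A was at rank 6 of the 21, FUL3-D at 7, FUL3-A at 8, FUL3-B at 10, FUL2-B at 12 and FUL2-D at 13. In 20 of the 21 genes both vernalized bud libraries were below both vernalized apex libraries. Of these genes 7 were listed at 0 in all 8 libraries, among them FUL3-A and FUL3-B.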
